A study of Mus musculus with 3 samples.

Results

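The syndecan and glypican genes were described in primary fibroblasts of the mouse, wounded in culture and kept for 5 h with the cell-free micrograft extract (MG) and PD0325901, an inhibitor of the kinase MEK. The group comprised the 10 genes that carry these family names in the mouse, namely Sdc1 to Sdc4 (4 syndecans) and Gpc1 to Gpc6 (6 glypicans), and all 10 were found by name among the 43472 genes of the table. The fibroblasts were isolated from the tail tip of C57BL/6 mice, cultured in serum and wounded by a scratch. Library replicates 1, 2 and 3 were biological replicates of this single condition, and all of them carried the wound, the MG and the inhibitor. Fibroblasts without the inhibitor or without the MG were not analysed here, so no effect of either was computed. The fibroblasts were adult, while the exact age and the sex of the animals and whether each replicate came from its own animals were not given in the sources used here.

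Syndecans and glypicans are the main heparan sulfate proteoglycans of the cell surface. Syndecans span the membrane and end in a short cytoplasmic tail that binds adaptor proteins and the actin cytoskeleton, whereas glypicans are held in the membrane by a glycosylphosphatidylinositol (GPI) anchor. Their heparan sulfate chains bind growth factors, chemokines, morphogens and matrix proteins such as fibronectin, and syndecan-4 and syndecan-1 are known for roles in adhesion, migration and skin repair.

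At a minimum of 10 normalized counts in every library, 8 of the 10 transcripts were detected, and the family was dominated by few genes. These were all 4 syndecans and the glypicans Gpc1, Gpc2, Gpc4 and Gpc6, while Gpc3 was near the limit and Gpc5 was almost absent. Of all 20322 genes with a read, 60.1% passed the same minimum. A normalized count is the number of reads on a gene divided by 1 size factor per library. Per kb of exon, Sdc4 and Gpc4 had the highest means of their families. In replicates 1 and 3 Sdc4 made up 63.1% and 68.5% of the summed syndecan level, whereas in replicate 2 Sdc1 exceeded it.

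**Figure D1:**
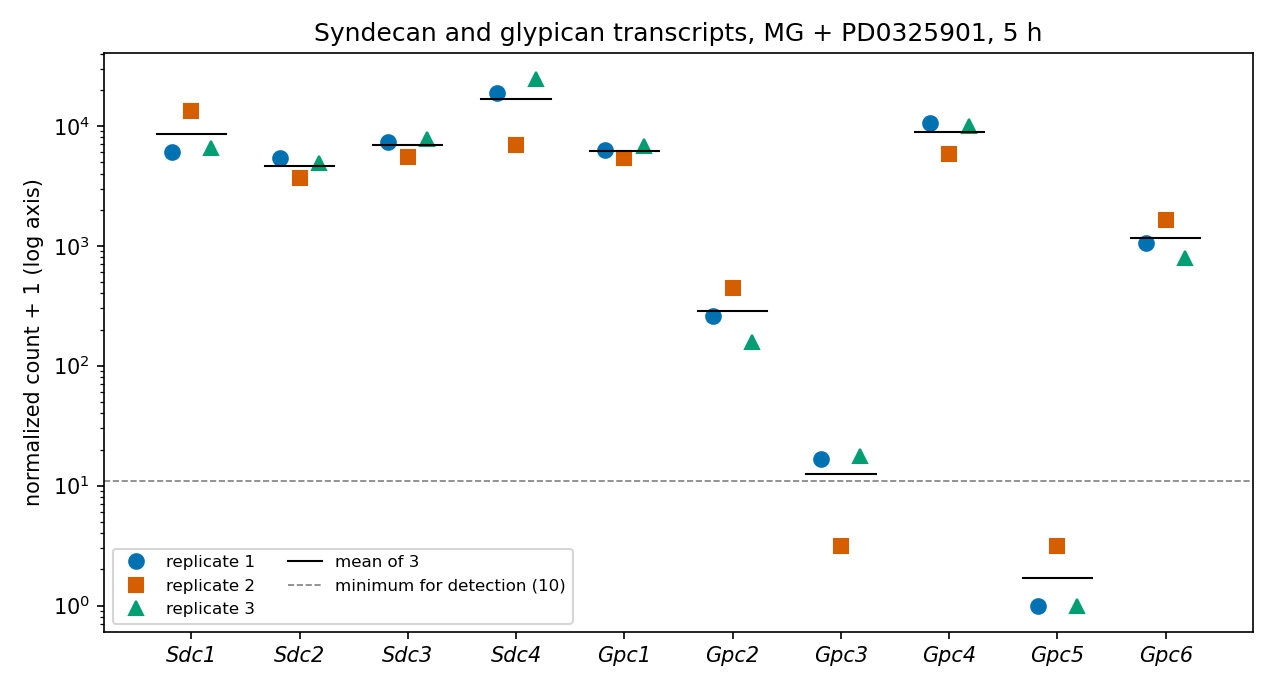
Normalized count + 1 (log axis) of each member in the 3 MG + PD0325901 libraries; points are single libraries, black bars the mean of 3 and the dashed line the minimum of 10 for detection. Sdc4 and Sdc1 were displaced in opposite directions in replicate 2, and Gpc3 and Gpc5 lay lowest.

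The libraries held 22540518, 27037783 and 17244505 reads on genes in replicates 1, 2 and 3, and an upper limit of 3 reads for a gene without any corresponds to 2.61, 2.11 and 3.56 normalized counts. Intervals and such limits cover counting error only, since reads carried no molecular identifiers. Replicate 2 stood apart from the other libraries. Of 13154 genes with a mean of at least 10, 1325 (10.1%) differed by more than 2-fold from both other libraries in the same direction in replicate 2, against 4.26% for replicate 1 and 3.58% for replicate 3. All 8 fibroblast markers were detected in every library, with summed levels of 342222 to 511672 normalized counts. Krt5, Krt14, Krt15 and Krt1, which define keratinocytes, reached at most 2.37 normalized counts. Of the 8 keratinocyte markers 1 (Krt10) was detected in every library. It had 80.8 normalized counts in replicate 1, more than 2-fold above both other libraries, which had at most 39.5. Trp63 reached at most 10.7, and Epcam and Cdh1 at most 4.34. Of 6 endothelial markers 1 (Egfl7) was detected in every library, and the sums were 90.3, 244 and 55.7 in replicates 1, 2 and 3. The high sum of replicate 2 came from Tek (6.95, 185 and 2.37), while Pecam1, Cdh5, Kdr and Emcn reached at most 9.55. Skeletal muscle markers were also highest in replicate 2, with sums of 2643, 8494 and 5667 from Acta1 and Des (212, 1208 and 77.0), 2 of 5 markers, and with Myod1 at 0. The 4 nerve and glia markers, 2 of them detected, were lowest there, with sums of 148, 59.9 and 151. Leukocyte markers summed to 200, 258 and 839 normalized counts in replicates 1, 2 and 3, with 2 of 8 detected, and the pan-leukocyte gene Ptprc reached at most 1.74. Among the fibroblast markers themselves, Thy1 was higher (2031, 15760 and 1652 normalized counts) and Dcn lower (3661, 1723 and 3659) in replicate 2. The part of these markers in the differences of replicate 2 was not tested. In bulk RNA, fewer cells of a type and less RNA per cell cannot be told apart.

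Promoter windows are shown for Sdc4 and Sdc1, the syndecans displaced by more than 2-fold in opposite directions in replicate 2. That of Gpc4, the most abundant glypican per kb, is shown as well. RefSeq promoter windows (GRCm38.p6, 250 bases before to 50 after the RefSeq start) matched 7 of the 10 members by symbol, all but Sdc2, Gpc1 and Gpc6. Each is printed 5′ to 3′ on the strand of the gene, with capitals for the letters of 4 motifs, searched on both strands: AP-1 (TGANTCA), NF-kB (GGG and CC with any 5 bases between them), the GC box (GGGCGG) and the TATA box (TATAAA). The letters of NF-kB and GC box matches can overlap. The GENCODE models that gave the gene positions start further upstream for Sdc4 (164443887) and Gpc4 (52165252), both on the minus strand. The windows of Sdc4 and Gpc4 therefore lie wholly inside these gene models. The Sdc1 model starts at 8771323 on the plus strand, inside the printed window, so the Sdc1 window lies partly in its gene model.
Sdc4, chr2:164443139-164443438, minus strand: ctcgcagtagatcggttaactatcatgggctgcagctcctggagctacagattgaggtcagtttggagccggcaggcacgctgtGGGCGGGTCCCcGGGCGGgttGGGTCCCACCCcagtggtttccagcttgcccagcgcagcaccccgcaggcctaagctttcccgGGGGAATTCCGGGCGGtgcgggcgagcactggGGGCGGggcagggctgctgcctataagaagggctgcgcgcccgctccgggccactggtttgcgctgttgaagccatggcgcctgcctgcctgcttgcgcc
Sdc1, chr12:8771146-8771445, plus strand: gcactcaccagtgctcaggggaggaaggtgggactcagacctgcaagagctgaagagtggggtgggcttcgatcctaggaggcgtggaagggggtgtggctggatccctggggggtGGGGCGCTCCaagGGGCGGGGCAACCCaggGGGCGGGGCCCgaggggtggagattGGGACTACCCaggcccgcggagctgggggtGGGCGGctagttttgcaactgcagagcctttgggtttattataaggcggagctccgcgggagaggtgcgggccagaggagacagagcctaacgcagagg
Gpc4, chrX:52164874-52165173, minus strand: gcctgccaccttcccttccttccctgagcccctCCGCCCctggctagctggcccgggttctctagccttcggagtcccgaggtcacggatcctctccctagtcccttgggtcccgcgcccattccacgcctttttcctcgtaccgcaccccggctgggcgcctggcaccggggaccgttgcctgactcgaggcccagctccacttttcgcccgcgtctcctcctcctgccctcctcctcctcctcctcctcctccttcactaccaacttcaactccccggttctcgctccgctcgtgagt

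No AP-1 letters were found in any of the 7 windows, and 7.81% of all 32841 promoter windows held them. The Sdc4 window had 5 NF-kB matches, among them GGGGAATTCC at position -82 from the RefSeq start, and 4 GC boxes. Its NF-kB matches at -166 and -165 overlapped on opposite strands, as did those at -145 and -144. The Sdc1 window also had 5 NF-kB matches, those at -104 and -103 overlapping likewise, and 3 GC boxes. The Gpc4 window had 0 NF-kB matches and 1 GC box. NF-kB letters stood in 50.8% and GC boxes in 35.7% of all windows, so their presence was common. The number of matches per window was not compared with all windows. The windows were rich in G and C, with 67.7% for Sdc4, 66.3% for Sdc1 and 66.7% for Gpc4 against a median of 52.7% over all windows. Such matches describe letters and are no evidence of binding.

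Sdc4 had the highest level of the syndecans per kb of exon and the widest variation. Syndecan-4 is the focal adhesion member of the family, which binds fibronectin together with integrins and protein kinase C alpha. The gene lies on chromosome 2 from 164424247 to 164443887 (GRCm38, minus strand) and its longest annotated transcript has 5 exons. Replicates 1, 2 and 3 gave 18785, 6933 and 24404 normalized counts of Sdc4, averaging 16707 ± 8918 (SD, n = 3). Replicate 2 was therefore the low library. Replicate 1 was 2.71-fold above replicate 2 (95% exact counting interval 2.65 to 2.77) and replicate 3 was 3.52-fold above it (3.44 to 3.61). Replicates 1 and 3 differed less, with replicate 3 being 1.30-fold higher. The SD of log2(normalized count + 1) of Sdc4 was 0.96, larger than that of 94.7% of the 12204 detected genes, whose median was 0.30.

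Sdc1 ran the other way. Syndecan-1 is the main syndecan of epithelia and plasma cells, appears on fibroblasts at lower levels and is shed into wound fluid. The gene lies on chromosome 12 from 8771323 to 8793715 (plus strand). Replicates 1, 2 and 3 gave 6006, 13261 and 6558 normalized counts of Sdc1, averaging 8609 ± 4039 (SD, n = 3). Only replicate 2 was high, at 2.21-fold above replicate 1 (counting interval 2.15 to 2.27) and 2.02-fold above replicate 3 (1.96 to 2.08), so it passed the 2-fold limit narrowly. Krt5, Krt14, Krt15, Krt1 and Cdh1 had at most 2 reads in every library, too few to compare the libraries. The 8 keratinocyte markers, 2 of them at 0 in every library, summed to 93.8, 44.4 and 47.4 normalized counts in replicates 1, 2 and 3. Most of each sum came from Krt10. The part of epithelial cells in the Sdc1 values was not tested.

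Sdc2 and Sdc3 varied far less. Syndecan-2 is a mesenchymal syndecan and syndecan-3 is best known from the nervous system. Sdc2 (chromosome 15, 32920723 to 33034935) was found at 5373, 3675 and 4902 normalized counts (mean 4650 ± 877, SD, n = 3). Sdc3 (chromosome 4, 130792537 to 130826319) was found at 7286, 5518 and 7801 normalized counts (mean 6869 ± 1197, SD, n = 3). Both were lowest in replicate 2, with highest-to-lowest ranges of 1.46-fold and 1.41-fold. Their SDs of log2 values, 0.29 and 0.26, were close to the median of 0.30 over all detected genes. Exons of Sdc3 share 415 and 48 bases with the antisense genes Gm26716 and Gm12970, and the strand setting of the counting was not given in the sources used here.

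Divided by the length of the exons, the order of the syndecans by mean was Sdc4, Sdc1, Sdc2 and Sdc3, but only part of this order was separated by the spread between libraries. Sdc4 had 7375, 2722 and 9581 normalized counts per kb in replicates 1, 2 and 3, and Sdc1 had 1577, 3482 and 1722. Sdc4 was above Sdc1 in 2 of 3 libraries and their ranges overlapped. The per kb ratio of Sdc4 to Sdc1 was 4.68 in replicate 1, 0.782 in replicate 2 and 5.56 in replicate 3. Sdc1 was above Sdc2 in all 3 libraries and their ranges did not overlap, as Sdc2 had at most 1523 normalized counts per kb. Sdc2 and Sdc3 (means 1318 ± 249 and 1147 ± 200 per kb, SD, n = 3) kept their order in each library, but their ranges overlapped, and their order reversed when the longest transcript was used as length. As 3 libraries are too few for an exact test of the order to pass the threshold, none was made.

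**Figure D2:**
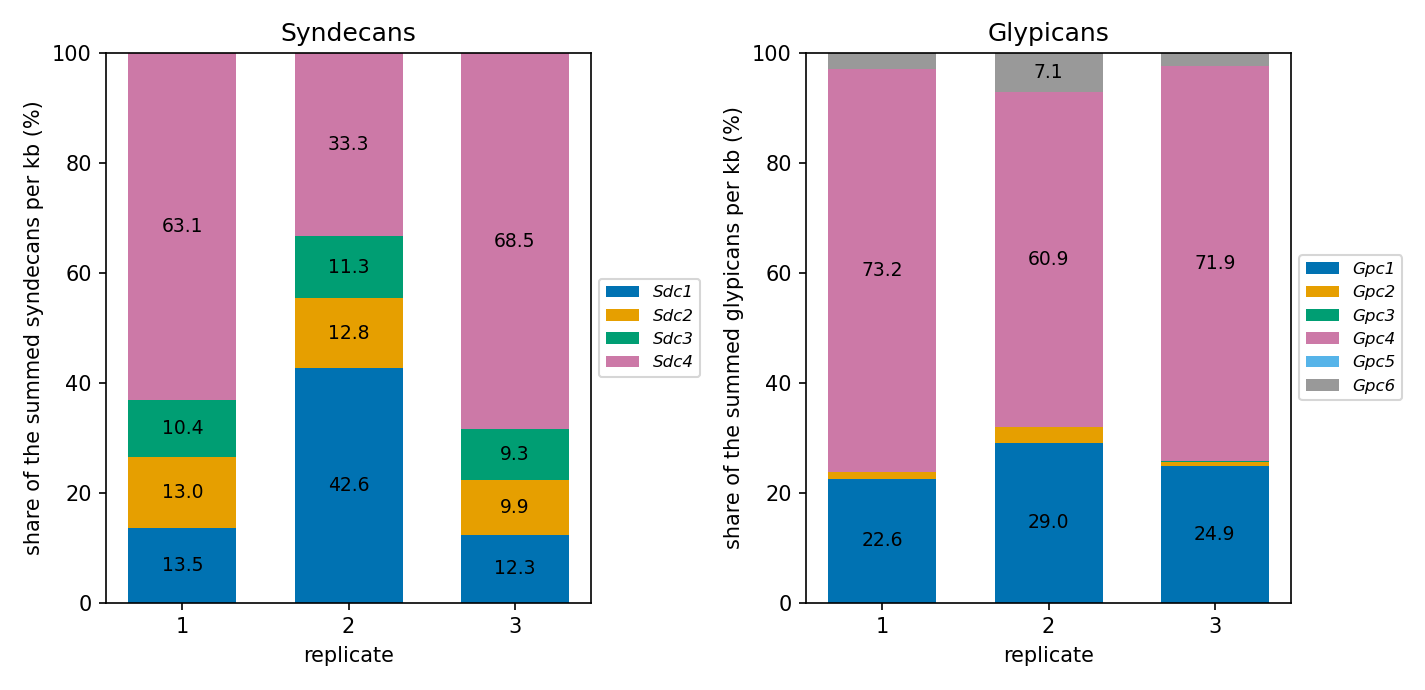
Share of each gene in the summed normalized counts per kb of its family (%), per library, as stacked bars for the 4 syndecans (left) and 6 glypicans (right), with shares above 4% printed. Sdc4 took 63.1%, 33.3% and 68.5% of the syndecans in replicates 1, 2 and 3, whereas Gpc4 led the glypicans in every library.

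As shares of the syndecan total per kb, a measure that does not depend on the scaling between libraries, Sdc4 took 63.1%, 33.3% and 68.5% in replicates 1, 2 and 3, and Sdc1 took 13.5%, 42.6% and 12.3%. Sdc1 was thus the leading syndecan transcript in replicate 2 alone. The shares of Sdc2 (11.9% ± 1.72, SD, n = 3) and Sdc3 (10.3% ± 0.989) moved little. The summed syndecan level was 11692, 8167 and 13996 normalized counts per kb, lowest in replicate 2. Syndecans made up 68.3%, 69.3% and 72.7% of the 2 families together, so the balance between syndecans and glypicans was nearly the same in all libraries.

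Gpc4 and Gpc1 were the abundant glypicans. Glypican-1 is a co-receptor for fibroblast growth factors, and glypican-4 takes part in Wnt, BMP and FGF signalling. Gpc4 (chromosome X, 52053021 to 52165252) reached 10555, 5843 and 10030 normalized counts in the 3 libraries (mean 8809 ± 2582, SD, n = 3). Replicate 2 was again the low library, as replicate 1 was 1.81-fold and replicate 3 1.72-fold above it, short of the 2-fold limit. Gpc1 (chromosome 1, 92831645 to 92860779) reached 6330, 5418 and 6767 normalized counts (mean 6172 ± 688, SD, n = 3). Gpc1 was the steadiest member, with a 1.25-fold range and an SD of log2 values of 0.16. Its exons share 977 bases with the opposite-strand gene Ankmy1.

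Gpc6 and Gpc2 were lower in level and highest in replicate 2. Glypican-6 acts in skeletal growth, where its loss causes omodysplasia, and glypican-2 is a glypican of developing neurons. Gpc6 (chromosome 14, 116925315 to 117976544) reached 1044, 1652 and 786 normalized counts in the 3 libraries (mean 1160 ± 445, SD, n = 3). Gpc2 (chromosome 5, 138273655 to 138280005) reached 259, 444 and 155 normalized counts (mean 286 ± 146, SD, n = 3). In both genes replicate 3 was the lowest and replicate 1 lay between, and the highest library was 2.10-fold and 2.85-fold above the lowest. Neither was more than 2-fold above both other libraries. Gpc2 shares 2376 of its 4274 exonic bases with Gm43720, a protein-coding gene model on the same strand, so its reads could have been split or left out in the counting and its level is uncertain.

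Gpc3 and Gpc5, which lie beside Gpc4 and Gpc6 on chromosomes X and 14, were scarcely expressed. Glypican-3 restrains body growth and is mutated in the Simpson-Golabi-Behmel overgrowth syndrome. Gpc3 (52272426 to 52613950 on chromosome X) had 15.6, 2.11 and 16.6 normalized counts, from 18, 3 and 14 reads. Replicate 1 was 7.39-fold above replicate 2 with a counting interval of 2.16 to 39.2, so the size of this difference was poorly fixed. Gpc5 (115092215 to 116525179 on chromosome 14) had 0, 2.11 and 0 normalized counts, from 0, 3 and 0 reads, at or under the limit of 3 reads in each library. Thus of each neighbouring pair one gene was well expressed, Gpc4 at 3323 ± 974 and Gpc6 at 181 ± 69.2 normalized counts per kb (SD, n = 3), and the other was near 0, Gpc3 at 4.25 ± 3.01 and Gpc5 at 0.158 ± 0.274.

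The order of the glypicans per kb was Gpc4, Gpc1, Gpc6, Gpc2, Gpc3 and Gpc5, and it held in all 3 libraries with no overlap between neighbours. In replicate 2, however, Gpc3 and Gpc5 both had 3 reads and 2.11 normalized counts. Their order there came only from the division by exon length. Gpc1 followed Gpc4 at 1196 ± 133 normalized counts per kb (SD, n = 3), and Gpc2 had 66.9 ± 34.2. For comparison, the median over the 11620 detected genes with a gene model was 107 normalized counts per kb, so that Gpc2 lay below and Gpc6 above the middle of the transcriptome. Gpc4 took 73.2%, 60.9% and 71.9% of the glypican total in replicates 1, 2 and 3 and Gpc1 22.6%, 29.0% and 24.9%. The share of Gpc6 was 2.99%, 7.11% and 2.33%, highest in replicate 2 as was its level.

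By replicate, the detected members moved in opposite directions. Of the 8 detected members, Sdc2, Sdc3, Sdc4, Gpc1 and Gpc4 (5) had their lowest value in replicate 2, and Sdc1, Gpc2 and Gpc6 (3) their highest. Replicate 1 was lowest for 1 and highest for 2 members, and replicate 3 lowest for 2 and highest for 3, where the shares over all detected genes were 34.5% and 31.5% for replicate 1 and 28.3% and 27.9% for replicate 3. Replicate 2 lay outside the range of the others for 77.9% of all detected genes, being lowest for 37.3% and highest for 40.6%, and for 8 of 8 members. The log2 ratios of replicate 2 to the mean of replicates 1 and 3 ran from -1.63 for Sdc4 to 1.14 for Gpc2, with 1.08 for Sdc1 and 0.87 for Gpc6. Over all detected genes the median of this ratio was 0.03.

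**Figure D3:**
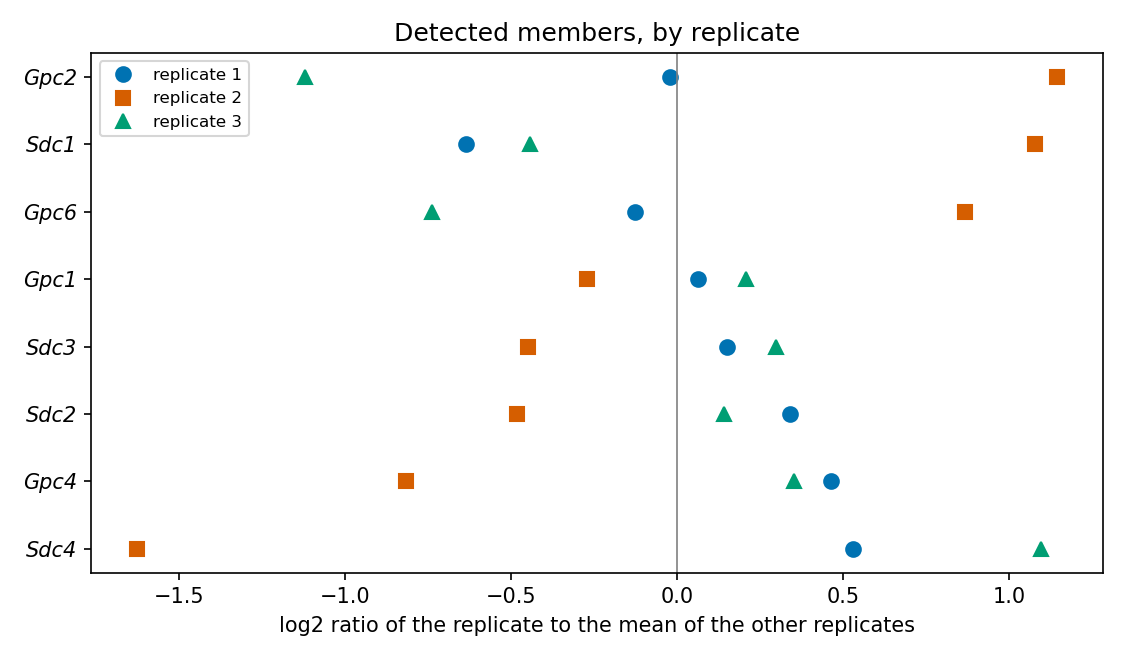
Log2 ratio of each replicate to the mean of the other replicates (x axis) for the 8 detected members (y axis), ordered by replicate 2; the grey line marks 0. Replicate 2 (squares) was the extreme of every row, from -1.63 for Sdc4 to 1.14 for Gpc2.

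A range of more than 2-fold between the highest and the lowest library was found for 4 of the 8 detected members (Sdc1, Sdc4, Gpc2 and Gpc6), against 21.6% of all detected genes. Without replicate 2 this count was 0, against 6.39% of all genes, and without replicate 3 it was 2, against 15.4%. Of the 9 members with a mean of at least 10, replicate 2 was more than 2-fold above both others for Sdc1 and more than 2-fold below both for Sdc4 and Gpc3, 3 members against 10.1% of all genes (5.2% above and 4.87% below). Replicates 1 and 3 were apart in this sense for 0 members, against 2.29% of all genes above and 1.97% below in replicate 1 and 1.28% and 2.3% in replicate 3. With 1.5-fold in place of 2-fold, 6 members were apart in replicate 2 (22.9% of all genes), 1 in replicate 3 (8.82%) and 0 in replicate 1 (11.8%). With 3-fold, replicate 2 was apart for 1 member, Gpc3 (4.07%), and replicates 1 and 3 for 0 (1.26% each), and 1 detected member, Sdc4, had a range of more than 3-fold (7.7%). The median SD of log2 values was 0.51 over the 8 detected members and 0.30 over all detected genes.

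The recovered reads of each pair of libraries were then set against each other with an exact binomial test (two-sided, Benjamini-Hochberg adjustment over all genes tested). Such a test compares 2 libraries of the same condition, and its calls account for counting error only. Between replicates 1 and 2 all 9 tested members were called, 6 higher in replicate 1 and 3 higher in replicate 2, against 69.1% of all 14771 genes tested (33.1% and 36.0%). Between replicates 2 and 3 the 9 tested members were likewise called, 3 higher in replicate 2 and 6 in replicate 3, with 62.6% of all genes (32.1% and 30.5%). Between replicates 1 and 3 there were 8 of 9, 4 higher in each, with 52.0% of all genes (25.5% higher in replicate 1 and 26.5% in replicate 3). Gpc3 was the exception there, at an adjusted p of 0.904 in the exact binomial test. When calls were limited to those above 2-fold, there were 3 members between replicates 1 and 2 (background 20.3%), 5 between replicates 2 and 3 (16.4%) and 0 between replicates 1 and 3 (9.27%). Counting error was small for the well expressed members, at most 1.55% for Sdc1 to Sdc4, Gpc1 and Gpc4 in their library with the fewest reads, and 8.74% for Gpc2.

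Most of the listed genes that build the heparan sulfate chains were detected, where the share was 60.1% over all genes with a read. Of 16 chain synthesis genes, from the sugar nucleotide enzyme Ugdh through the linker enzymes to the polymerases Ext1 and Ext2, 15 were detected and only Extl1 was not. Between the libraries, 2 of the 15 had a more than 2-fold range, where the share was 21.6% over all detected genes. Without replicate 1 the count was 0, against 12.8% of all genes. Ugdh, which makes UDP-glucuronic acid, was the highest of the list by mean, at 5398, 12029 and 8195 normalized counts. The xylosyltransferase gene Xylt1, named for its count, had 14.8, 47.2 and 94.8, whereas its paralogue Xylt2 had 489, 326 and 522. Slc35b3, a transporter of the sulfate donor PAPS, had 509, 268 and 389 normalized counts. Called differences numbered 13 of 16 between replicates 1 and 2 (7 higher and 6 lower in replicate 1), 8 of 16 between replicates 1 and 3 (2 and 6), and 12 of 16 between replicates 2 and 3 (2 higher and 10 lower in replicate 2). Over all genes tested 69.1%, 52.0% and 62.6% were called between these pairs. The median log2 ratio of replicate 2 to the others was -0.10.

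Of the enzymes that modify the chains, with 10 genes at a mean of at least 10, Hs6st1 and Hs3st1 were displaced in replicate 2. Hs6st1 lay more than 2-fold above both other libraries and Hs3st1 more than 2-fold below, against 10.1% of all genes either way. Of the 18 chain modification genes 10 were detected, where the share was 60.1% over all genes with a read. The 3-O-sulfotransferase genes Hs3st2, Hs3st4 and Hs3st5 (3) had no reads in any library. Most minima of the detected genes, 7 of 10, fell in replicate 1 (34.5% over all detected genes). A more than 2-fold range was found for 5 of the 10, namely Ndst1, Hs6st1, Hs3st1, Hs3st3b1 and Sulf2, against 21.6% of all detected genes. Without replicate 2 the count was 0 for chain modification and 2 for chain synthesis, against 6.39% of all genes. The difference between these lists was not tested. Hs6st1, a 6-O-sulfotransferase, stood at 705, 1928 and 594 normalized counts and was, among the genes of the list with a mean of at least 10, the one that stood more than 2-fold above both others in replicate 2. Ndst1, an N-deacetylase and N-sulfotransferase, had 927, 2372 and 1777, and the extracellular 6-O-endosulfatase gene Sulf2 had 1123, 3047 and 1768. Hs3st1, which makes the antithrombin-binding form, moved the other way with 99.0, 27.5 and 113. Sulf1, the other endosulfatase gene and the highest of the list, had 3732, 3825 and 5616 normalized counts. Of the 11 tested genes, 8 were called between replicates 1 and 2 (1 higher and 7 lower in replicate 1), 7 between replicates 1 and 3 (2 and 5) and 11 between replicates 2 and 3 (7 higher and 4 lower in replicate 2), beside 69.1%, 52.0% and 62.6% of all genes. The median log2 ratio of replicate 2 was 0.45, against 0.03 over all detected genes.

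Among the genes for release from the surface, 8 of 11 were detected, beside 60.1% of all genes with a read. Of these 8, 1 had a more than 2-fold range (21.6% of all detected genes). The sheddases Adam10 (1714, 2189 and 1735 normalized counts) and Adam17 (860, 1121 and 954), which cut syndecan ectodomains, varied little. Mmp14, a membrane-bound metalloproteinase that also cuts syndecan-1, had 13724, 15866 and 20812. Mmp9 had 157, 23.3 and 550 normalized counts, lowest in replicate 2, as were 37.3% of all detected genes, and highest in replicate 3. Mmp7 had 1.74, 0 and 0. Timp3, an inhibitor of these enzymes that itself binds heparan sulfate, was the highest of the list at 72294, 40662 and 62534. Furin, which activates some of the proenzymes, had 2417, 2958 and 3674. Notum, an esterase of Wnt proteins that has also been linked to glypican release, had 26.9, 2.82 and 2.37, so it was above the minimum in replicate 1 alone. The exact tests called 7 of 9 tested genes between replicates 1 and 2 (3 higher and 4 lower in replicate 1), 5 of 9 between replicates 1 and 3 (2 and 3) and 6 of 8 between replicates 2 and 3 (2 higher and 4 lower in replicate 2), with 69.1%, 52.0% and 62.6% called over all genes.

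Of 10 other proteins that carry heparan sulfate always or at times, 8 were detected, beside 60.1% of all genes with a read. A more than 2-fold range was found for 4 (Col18a1, Tgfbr3, Nrp1 and Srgn), against 21.6% of all detected genes. Their number was 2 without replicate 2, against 6.39% of all genes, and 2 without replicate 3, against 15.4%. Cd44, whose variant forms carry the chains, was highest at 40677, 36683 and 50478 normalized counts in replicates 1, 2 and 3. The co-receptors Tgfbr3 (betaglycan), at 1090, 2579 and 1228, and Nrp1 (neuropilin-1), at 2232, 4256 and 1794, were highest in replicate 2. So were 40.6% of all detected genes. Col18a1, the basement membrane collagen that yields endostatin, had 299, 569 and 1597. Between replicates 1 and 2, 7 of 8 tested genes were called (2 higher and 5 lower in replicate 1), as were 7 of 8 between replicates 1 and 3 (2 and 5) and 6 of 8 between replicates 2 and 3 (2 higher and 4 lower in replicate 2). The shares over all genes were 69.1%, 52.0% and 62.6%.

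All 10 genes listed as partners of the syndecan tail were detected, beside 60.1% of all genes with a read. Of these, 3 had a more than 2-fold range (Tiam1, Ezr and Sdcbp2), against 21.6% of all detected genes. The count was 1 without replicate 2, against 6.39% of all genes, and 1 without replicate 3, against 15.4%. Actn1, an actin cross-linker that binds the syndecan-4 tail, stood at 23425, 33153 and 33359 normalized counts. Tiam1, a Rac exchange factor, had 334, 633 and 183, and Ezr, a linker to actin, had 398, 323 and 965. Cask, a PDZ scaffold that binds the end of the tail, had 909, 1676 and 874. The exact tests called 10 of 10 between replicates 1 and 2 (4 higher and 6 lower in replicate 1), 7 between replicates 1 and 3 (3 and 4) and 9 between replicates 2 and 3 (5 higher and 4 lower in replicate 2), where all genes gave 69.1%, 52.0% and 62.6%. The median log2 ratio of replicate 2 to the others was 0.32 for this list, -0.05 for the genes of release and shedding and -0.13 for the other heparan sulfate proteins.

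**Figure D4:**
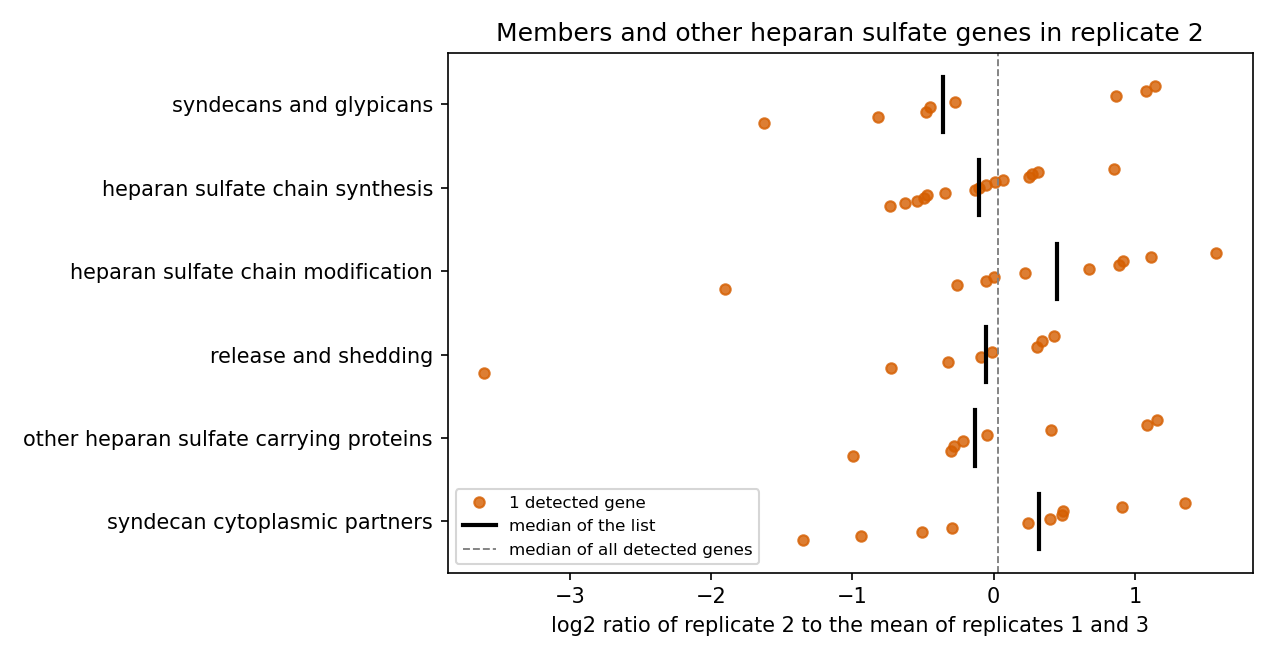
Log2 ratio of replicate 2 to the mean of replicates 1 and 3 (x axis) for the detected members and the detected genes of the 5 lists; circles are single genes, black bars list medians and the dashed line the median of all detected genes (0.03). The medians ran from -0.13 to 0.45 over the lists of other genes, and single genes were spread to both sides.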

How the data were processed

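RNA-seq of the 3 MG + PD0325901 libraries (biological replicates 1, 2 and 3) was used, and 3 further columns of per-sample values that matched no sample label were left out. The authors trimmed adapters, aligned 50 bp single-end reads from stranded mRNA libraries to mm10 with TopHat2 2.0.13, allowed mismatches within a set limit, kept unique alignments and counted reads per gene with HTSeq 0.5.3p3. The deposited signal values are normalized counts, made by the authors by dividing the reads of each library by 1 size factor (DESeq). The gene annotation and strand setting of the counting were not given in the sources used here. All values above 0 (100%) came out as whole reads within 0.01 reads when divided by the value of a single read, and these reads were used, with size factors of 1.15, 1.42 and 0.844.

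The 10 members and the lists of other genes were chosen with earlier results of these data known. All members were named. From each list the gene with the highest mean and the 3 with the widest range at a mean of at least 100 were named, with the sheddases and Notum. Extl1, Xylt1, Hs3st1, Hs3st3b1, Sdcbp2, Srgn, genes at 0 and single markers were added after their values were seen. Fold ranges used normalized count + 1. Pairs of libraries were tested on recovered reads with at least 10 in the pair (threshold 0.05 after adjustment). No count model between groups was fitted, since there was 1 group. Exon lengths and positions came from GENCODE M21 (GRCm38), where 95.2% of the detected genes had a model, and promoter windows from RefSeq. TMM factors came from edgeR 4.0.16 in R 4.3.3, the rest from Python 3.11.15 with scipy 1.17.1 and pandas 2.3.3. The pair test and the rule for libraries apart were tried on simulated libraries with planted changes and counting error only. The further spread between the real libraries was not simulated. Of the table's names, 27 had been turned into dates, with 0.231% of the reads.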

Additional observations from a re-analysis of the deposited data

How the results depend on the processing

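No paired analysis was possible because the labels gave 1 group. The levels of the 10 members moved by less than 1 SD with TMM scaling or with equal totals per library. The members with a more than 2-fold range numbered 1 at 3-fold. When single libraries were omitted they numbered 0 to 4, and the 0 was without replicate 2 (6.39% of all genes). The members apart in replicate 2 numbered 6 at 1.5-fold (22.9% of all genes) and 1 at 3-fold (4.07%), and those apart in replicate 3 numbered 1 at 1.5-fold. Requiring more than 2-fold as well as the adjusted p of the exact tests left 3, 0 and 5 members between replicates 1 and 2, 1 and 3, and 2 and 3, by construction. With the length of the longest transcript the share of Sdc3 became 11.4% and that of Gpc1 29.1%, and Sdc3 moved to rank 3 above Sdc2. Without division by length the shares were 18.7% for Sdc3, 37.8% for Gpc1, 52.7% for Gpc4 and 7.51% for Gpc6, and 3 neighbour pairs of glypicans were separated. With each replicate left out, the share of Sdc4 ranged from 48.2% to 65.8% and that of Sdc1 from 12.9% to 28.1%, both at the far end without replicate 2. The genes with a more than 2-fold range then numbered 0 to 2 for chain synthesis, 0 to 5 for chain modification, 2 to 3 for other heparan sulfate proteins and 1 to 3 for cytoplasmic partners. Over all genes the shares were 12.8%, 6.39% and 15.4% without replicates 1, 2 and 3. With no minimum, 6 members had a more than 2-fold range and 4 were apart in replicate 2, and at a mean of at least 100 there were 2 apart. These are among 104 further alternative values that moved by less than the replicate spread or, for counts, by at most 1.5 times. Depth limited Gpc3 and Gpc5, which had 3 reads or fewer in at least 1 library. Outliers were not tested for in a group of 3.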

Other observations

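A few genes of the heparan sulfate lists were high in replicate 1 and not in replicate 2, and were picked after their values were seen. Extl1, an exostosin-like glycosyltransferase gene, stood at 57.3, 5.64 and 24.9 normalized counts in the 3 libraries. Srgn, which encodes the granule proteoglycan serglycin of blood cells and endothelium, had 166, 47.9 and 55.7. Of the leukocyte genes, Cd74 (14.8, 5.64 and 5.93 normalized counts) and Ptprc (2, 1 and 1 reads) were highest in replicate 1, as Srgn was. Tyrobp, Laptm5, Itgam and Csf1r (57.3, 179 and 161 normalized counts) were lowest in replicate 1. Cd52 and Lyz2 (123, 62.7 and 601) were highest in replicate 3, as were Tyrobp, Laptm5 and Itgam, which reached at most 36.7 normalized counts there. The sum of the leukocyte markers was highest in replicate 3 too, mostly through Lyz2. The part of leukocytes in the Srgn values was not tested. Sdcbp2, the scarce paralogue of the syntenin gene Sdcbp, had 56.4, 21.1 and 54.5 normalized counts, while Sdcbp itself had 4356, 3403 and 3990.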
